A study of Homo sapiens with 52 samples.

Results

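Lamina contacts of human chromosome 4 were described in single KBM7 cells, an established chronic myeloid leukaemia line. The members were all bins of 100 kb that the deposited table places on chromosome 4 and that hold a value in every cell. They numbered 1883, of 1912 chromosome 4 bins in the table and of 26584 measured bins in the whole series. The contacts were mapped by DamID, in which the bacterial methyltransferase Dam, fused to Lamin B1, marks adenines of DNA that comes close to the nuclear lamina. The single group held 51 cells of clone 14, labelled diploid (2N), in which methylation had been induced with 0.5 nM Shield1 for 15 h before single cells were sorted from the smallest 2% of those that carried both Fucci cell cycle markers. All cells descend from 1 clone and carry the fusion, there was no group without it, and the 2 copies of the chromosome cannot be told apart in these values. A value is the ratio of observed to expected signal (OE), and contact means an OE of 1 or above. The contact frequency of a bin is the percentage of the 51 cells in contact. The labels name no separate cultures, and the 51 cells are treated as a single sample. Each ± is an SD over cells and describes these cells only, and no p-value is given.

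The nuclear lamina is a mesh of lamins under the inner nuclear membrane, and the stretches of chromosome that touch it are called lamina-associated domains. In many human cell types such domains are poor in genes, rich in A and T and mostly silent. As background, the tip of the short arm of chromosome 4 is known as gene-rich and carries HTT, the gene altered in Huntington's disease, and FGFR3, which encodes a fibroblast growth factor receptor. The end of the long arm carries the D4Z4 repeats with the DUX4 gene, linked to facioscapulohumeral muscular dystrophy, and has been described near the nuclear edge in several cell types. RefSeq (GRCh38.p14) lists 770 protein-coding genes on chromosome 4, or 4.03 per Mb of the chromosome, the third lowest density of the 20 chromosomes compared, after chromosomes 13 (2.93) and 18 (3.46). In the order of that list the outermost coding genes with a name of their own are ZNF595 on the short arm and DUX4 on the long arm. The bins follow hg19, so genes were not placed on them and positions below are given without gene names.

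The cells yielded 50978 to 316463 recovered reads (median 142540), of which chromosome 4 took 5359 to 31812 (median 13491). Chromosome 4 held 7.08% of the measured bins and 9.92% ± 1.43 (SD, n = 51) of a cell's reads. An OE of 1 in a typical chromosome 4 bin stands for 2.07 reads in the shallowest cell (cell 9) and for 12.9 in the deepest (cell 26), so single calls in shallow cells rest on few reads. No pair of cells held identical values, and over chromosome 4 the contact calls of pairs of cells correlated with a phi of 0.410 to 0.784.

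The question put first was how much of chromosome 4 touched the lamina in a single cell. On average 43.6% ± 4.94 of its bins were in contact, against 30.6% ± 3.59 of the bins of the rest of the genome (SD, n = 51). The difference of 13.0 points ± 3.92 was positive in all 51 cells. The lowest share on chromosome 4 was 33.2% in cell 44 (95% Wilson interval 31.1% to 35.4%), the median 44.7%, and the highest 53.3% in cell 26 (51.0% to 55.5%). Elsewhere in the genome the shares ran from 22.4% in cell 42 over a median of 30.1% to 38.9% in cell 26, so the ranges overlap although no single cell had less contact on chromosome 4 than elsewhere. The intervals cover counting error only and treat neighbouring bins as independent, which makes them too narrow. Cell 42 had the widest difference, 24.4 points, with 46.8% on chromosome 4. That cell also had the highest share of reads on chromosome 4 (16.3%) and only 10.2% contact on chromosome 5. Cells 44 and 32 had the narrowest, 4.69 and 4.87 points. Depth moved with the level: over the 51 cells a cell's total reads had a Pearson's r of 0.526 and a rho of 0.469 with its chromosome 4 share. With chromosome 4 minus the rest they had an r of 0.0201 and a rho of -0.0230.

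**Figure D1:**
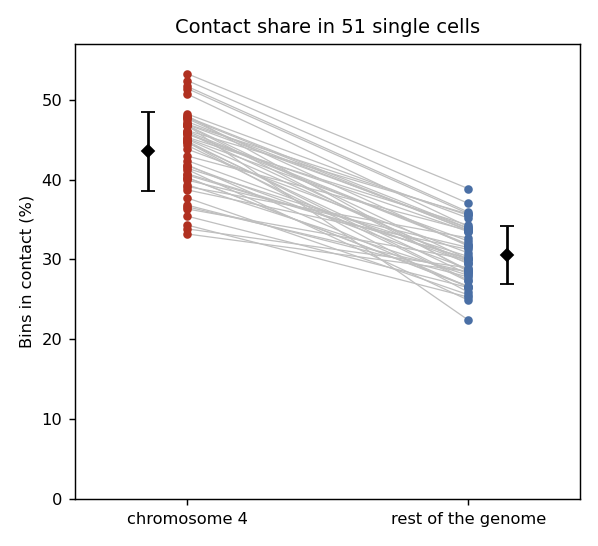
Percentage of 100 kb bins in contact with the lamina in each of 51 cells, on chromosome 4 and in the rest of the genome. Grey lines join the values of 1 cell, and black diamonds with bars are means ± SD (43.6% ± 4.94 and 30.6% ± 3.59); every line falls from chromosome 4 to the rest.

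The chromosomes below were set beside it in the same cells, chosen for like length (5) or like contact (18 and X). Chromosome 4 exceeded chromosome 5 (36.9% ± 5.73) by 6.65 points ± 6.51 and was higher in 47 of 51 cells. Relative to chromosome 18 (46.9% ± 6.80), the most contacted, it was lower by a mean difference of -3.30 points ± 5.60, with the lower value in 38 cells. Against chromosome X (43.7% ± 5.99) the difference was -0.0759 points ± 5.50, with chromosome 4 higher in 25 cells and lower in 26. This last difference is far inside the spread between cells, and its sign turned at an OE threshold of 0.5 (0.434 points) and after all cells were thinned to 50978 reads (0.552 points). Among the 20 chromosomes compared, chromosome 4 had the third highest contact. The 20 were chromosomes 1 to 7, 10 to 21 and X, and no other chromosome was ranked. Chromosomes 9 and 22 are given by the table as joined pieces. Over these chromosomes contact share and coding genes per Mb were related by r = -0.812 (Pearson) and rho = -0.642 (Spearman). Without chromosomes 17 and 19, the farthest from the median in gene density, r was -0.607 (n = 18). The chromosomes share cells and libraries, so these values are a description.

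Chromosome 4 differed from the rest in how its bins were spread over frequencies. At the top, 80% of cells or more contacted 603 of its bins (32.0%), against 20.0% of bins elsewhere and 20.9% of all measured bins. Bins contacted in all 51 cells numbered 36 (1.91%, against 0.741% elsewhere and 0.824% of all bins), so chromosome 4 held 16.4% of the 219 such bins of the genome. The share was 1.95% on chromosome X and 3.06% on chromosome 18, so it was not particular to chromosome 4. At the bottom, 400 bins (21.2%) were contacted in no cell, against 40.1% elsewhere and 38.7% of all measured bins. Of these 400, 59 had no read in any cell, and for the other 341 a count of 0 of 51 cells allows a share of up to 5.88% of cells. Between at least 20% and under 80% of cells lay 447 bins (23.7%), near the 21.9% elsewhere and the 22.1% of all bins. The 573 bins contacted in at most 5% of cells made up 30.4%, against 47.9% elsewhere and 46.7% of all bins. Chromosome X had a like distribution, with 33.0% of bins in at least 80% of cells and 24.5% in none. The expected number of a bin, recovered from the ratios, was close in all classes: its median was 306 for bins in at least 80% of cells, 310 for the middle class and 309 for bins with reads that no cell contacted.

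**Figure D2:**
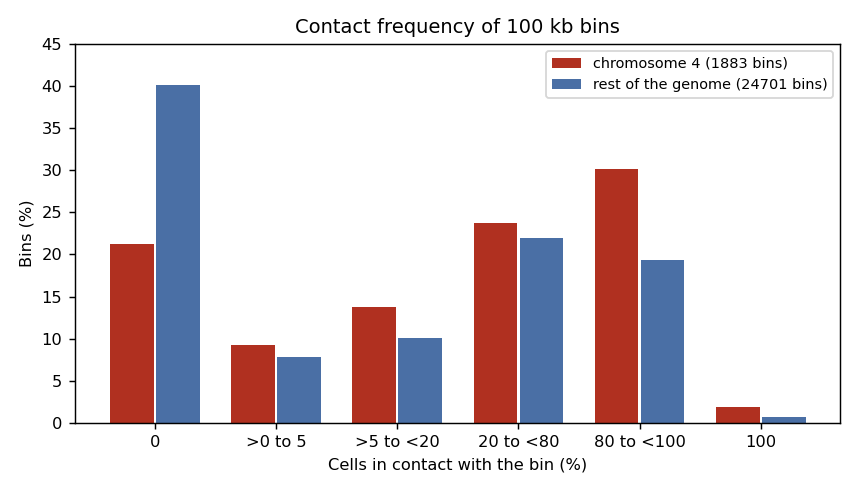
Percentage of 100 kb bins (vertical axis) by the percentage of the 51 cells in contact with them (horizontal axis), for chromosome 4 (red, left) and the rest of the genome (blue, right). Chromosome 4 has fewer bins that no cell contacted (21.2% against 40.1%) and more in the class from 80% to under 100% (30.1% against 19.3%).

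The same threshold set the class sizes. With that threshold at 2, only 10.2% of chromosome 4 reached 80% of cells, and 33.8% of its bins were contacted in none. Of all single values on chromosome 4, 35.1% were 0, 14.5% lay from 1 to under 2 and 29.1% reached 2. Its contacted values had a median OE of 2.51, against 2.39 in the rest of the genome.

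Contact was unevenly placed along the chromosome. The arms were divided at the stretch from 49700001 to 52600000, which in hg19 holds the centromere and has 1 measured bin inside it. The long arm (1385 bins) was in contact over 44.1% ± 5.51 and the short arm (497 bins) over 42.2% ± 5.44. The difference of 1.89 points ± 5.43 was smaller than the spread between cells, with the long arm higher in 35 cells. Its direction turned among bins with a read in any cell (-1.89 points) and among bins with an expected number of at least 100 (-2.54 points). Both settings leave out the 59 bins without a read, of which 23 lay in the first 5 Mb and 16 in the next 5 Mb. The direction also turned when the tip of the short arm was left out. Without the first 10 Mb the short arm stood at 52.8% ± 6.77, and the long arm was lower by a mean difference of -8.67 points ± 6.20, in 47 of 51 cells. Relative to the rest of the genome the arms had, across cells, r = 0.325 (Pearson) and rho = 0.438 (Spearman) (n = 51 cells, both arms from the same library and set against the same share).

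The 2 ends differed from each other more than the arms did. Within 5 Mb of the outermost measured bins, the long arm end was contacted in 36.4% ± 16.4 of bins and the short arm end in 0.0392% ± 0.280 (SD, n = 51). The long arm end was higher in all 51 cells, with values from 4.00% in cell 14 over a median of 34.0% to 64.0% in cell 7, while 50 of 51 cells had no contact at all at the short arm end. In cell 18 a single bin of the outermost 1 Mb was in contact. Of the 50 bins of that end, 23 held no read in any cell, so no expected number could be recovered for them. Ends were ranked on the chromosomes compared above, without the joined pieces, where the outermost measured bin lies within 1 Mb of the chromosome end. Of these 35 ends, the long arm end of chromosome 4 was the fourth most contacted. Higher were the first ends of chromosomes 3 (69.3%) and 18 (49.6%) and the last end of chromosome 11 (38.0%), and the median end stood at 4.94%. The first end of the joined piece 9:22 was not ranked and stood at 39.7%, also above the long arm end of chromosome 4. Both ends together were lower than the other bins of chromosome 4, 18.2% ± 8.22 against 45.0% ± 5.02, in all 51 cells. The pooled share includes the 50 bins of the short arm end, which pull it down, so it does not describe each end. The long arm end alone reached 64.0% in cell 7, while the other bins reached at most 54.6% in any cell.

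Inwards from the long arm tip, contact did not rise step by step. The outermost 1 Mb (190100001 to 191100000) was contacted in 19.0% ± 13.2 of bins and the next 1 Mb in 40.6% ± 32.8. From 188100001 to 189100000 the value was 73.1% ± 28.4, with a median cell at 80.0%, a highest at 100% and 3 cells at 0. The following stretches of 1 Mb fell back to 24.1% ± 16.9 and 25.3% ± 16.8. At the other tip, the 4 Mb from 1000001 to 5000000 had no contact in any of the 51 cells, and the 5 Mb from 5000001 to 10000000 had 0.471% ± 1.10. The 5 Mb after that, from 10000001 to 15000000, were contacted in 50.2% ± 14.8, so the change from almost no contact to frequent contact lay near the 10 Mb mark.

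**Figure D3:**
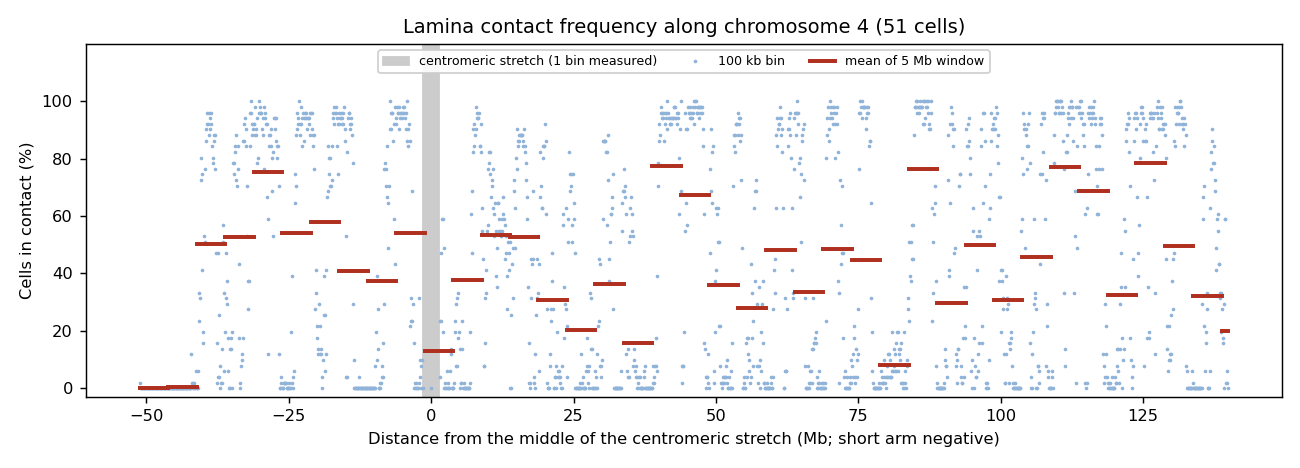
Contact frequency of the 1883 measured bins of chromosome 4 (blue dots, percentage of 51 cells) and mean of each 5 Mb window (red lines) against the distance from the middle of the centromeric stretch (grey). The first 2 windows of the short arm lie at 0.0392% and 0.471%, 1 long arm window is low at 8.16%, and the highest window reaches 78.5%.

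Windows of 5 Mb ran from the short arm tip at 0.0392% to 78.5% ± 14.7 from 175000001 to 180000000. Another 4 windows exceeded 70%: from 90000001 (77.4% ± 8.31), 160000001 (76.9% ± 7.66), 135000001 (76.4% ± 8.84) and 20000001 (75.3% ± 11.1). The last of these is the only one on the short arm. High windows stood beside low ones. The window from 130000001 to 135000000, next to one of the highest, was contacted in 8.16% ± 13.9, and that from 85000001 to 90000000, next to another, in 15.8% ± 10.6.

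Regions that nearly every cell held at the lamina were taken as unbroken runs in which each bin was contacted in 90% of cells or more. There were 85 such runs with 434 bins (23.0% of the chromosome, against 12.8% of all measured bins), 12 of them at least 1 Mb long. The longest covered 3.0 Mb of the long arm, chr4:136000001-139000000. Single cells had contact in 80.0% to 100% of its 30 bins, with a median of 100%, a mean of 97.1% ± 4.52 and 32 cells in contact throughout. It held 219 to 1119 reads per cell over its 30 bins. The second covered 2.8 Mb, chr4:96100001-98900000, at 96.4% ± 7.58, with a lowest cell at 71.4% and 34 cells in contact throughout. The third, chr4:92100001-94600000, stood at 94.7% ± 9.82, with a lowest cell at 60.0%. The fourth was the only one of the 5 on the short arm, chr4:44800001-46800000, with 95.4% ± 9.21 and a lowest cell, cell 44, at 50.0%. The fifth, chr4:126300001-128000000, reached 96.9% ± 7.19 with 39 cells in contact throughout. No cell left any of the 5 without contact, and with the OE threshold at 2 their contacted shares were 75.7% to 83.2%.

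Since such runs were chosen from the calls they are described by, they were also chosen in the 25 odd-numbered cells and measured in the 26 even-numbered ones. The 32 common runs of at least 0.5 Mb found in odd-numbered cells were contacted in 93.5% ± 5.07 of their bins in even-numbered cells (range over cells 78.9% to 100%), against 96.5% ± 4.23 in the cells that chose them. Of their 337 bins, 324 were contacted in at least 80% of even-numbered cells and none in at most 20%. The 32 rare runs stood at 0.883% ± 0.882 in even-numbered cells and 0.482% ± 0.573 in odd-numbered ones. The cells belong to 1 clone, so this compares cells and not cultures.

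Bins contacted in every cell mostly had no direct neighbour of the same kind. The 36 bins formed 33 runs, none longer than 0.2 Mb, so no run reached the length of 3 bins set for naming. All but 1 lay in domains of frequent contact (described next), spread over 17 of them, 11 of which held a single such bin. They were not evenly spread. The most were in chr4:135900001-139000000, with 9 of its 31 bins, and in chr4:160500001-162200000, with 6 of its 17 bins. The short arm held 5 of them among 497 bins and the long arm 31 among 1385 bins.

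With the frequency lowered to at least 80% of cells and a length of at least 0.5 Mb, chromosome 4 had 40 domains of frequent contact, 13 on the short arm and 27 on the long arm, which together covered 53.9 Mb. Their lengths ran up to 3.6 Mb with a median of 1.2 Mb. Such domains are given for chromosome 4 only, with no count on other chromosomes to set beside them. A cell was in contact over the whole length of 62.4% of domains on average, from 9 domains in cell 43 over a median of 25 to 39 in cells 13 and 31. The domains were chosen from the same calls, and the 80% limit on each bin itself keeps complete loss of a domain low. Choosing them in odd-numbered cells and measuring them in even-numbered ones was not done. Complete loss was thus rare among domains chosen for frequent contact. Of 2040 pairs of a domain and a cell, 7 (0.343%) had no contact in any bin of the domain. These 7 losses fell in 6 domains and 5 cells, and 46 cells lost none. The longest domain lost was chr4:66200001-67700000, without contact in cells 4 and 48, although the 51 cells averaged 86.9% ± 26.3 there.

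Almost uncontacted regions were taken as runs in which no bin was contacted in over 5% of cells, of which there were 115 with 573 bins. The longest by far was the tip of the short arm, chr4:1-9000000, with contact in 0.0218% ± 0.156 of its bins and 50 cells without any. A cell had a median of 2 reads in it and at most 21, and 37 of its 90 bins held no read in any cell. The second was chr4:37600001-41300000, also on the short arm, at 0.106% ± 0.530 with 49 cells at 0. The other 3 of the longest 5 were chr4:24500001-26500000 (0.882% ± 2.59), chr4:109500001-111200000 (0.923% ± 2.46) and chr4:169800001-171500000 (1.27% ± 3.39), in which 43 or 44 cells had no contact and the highest cell reached 11.8% to 17.6%. Over all 5, contact covered 0.336% ± 0.443. That value was 0.812% with every cell thinned to 50978 reads and 1.82% with the OE threshold at 0.5.

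A stretch of low contact on the long arm was singled out after the values were seen. In chr4:128500001-134800000, over 6.3 Mb, every bin was contacted in under 20% of cells, with a mean of 6.01% ± 10.7. The median cell had contact in 1.59% of the 63 bins and 17 cells in none, but cells 24 and 45 both had contact in 46.0%. These 2 cells had 385 and 547 reads in the stretch, against a median of 37. Cells 26 and 12 followed, with contact in 33.3% and 23.8% and with 552 and 237 reads in this stretch. It borders a zone of intermediate contact, chr4:134800001-135900000, at 42.2% ± 31.5, which is followed, after 1 bin, by the longest common run of the chromosome at 97.1%.

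Regions that cells held differently were taken as runs contacted in at least 20% and under 80% of cells. There were 158, most of them short, with a median length of 0.2 Mb and 61 of a single bin. One stood out in length: chr4:61600001-65000000, with 3.4 Mb on the long arm not far from the centromere. Single cells had contact in 2.94% (cell 22) to 94.1% of its 34 bins, with a median of 55.9% and a mean of 55.0% ± 26.3. All 51 cells had some contact in it and none had contact throughout. In 35 cells between 20% and 80% of its bins were contacted, while 11 cells were at 80% or above and 5 at 20% or below. Reads in this region numbered 14 to 732 per cell (median 234), and its contact correlated with a cell's total reads with a Pearson's r of 0.233 (n = 51 cells).

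The other 4 intermediate regions were about 1 Mb long and spread to both extremes. The region chr4:134800001-135900000 had no contact in 8 cells and full contact in 3. Near the long arm tip, chr4:188700001-189800000 stood at 50.6% ± 33.5, with 7 cells at 0, a median of 45.5% and 3 cells in contact throughout. The region chr4:75400001-76400000 stood at 64.1% ± 30.0, with 1 cell at 0 and 11 in contact throughout. The region chr4:82200001-83200000 stood at 55.9% ± 32.0, with 4 cells at 0 and 4 in contact throughout. Once the share of the rest of the genome was subtracted from each cell, these last 2 regions, 6.8 Mb apart, varied together over cells with a Pearson's r of 0.593. The 9 other pairs of the 5 regions had r from -0.254 to 0.175. All pairs come from the same 51 libraries and subtract the same share. When intermediate runs of at least 0.5 Mb were chosen in odd-numbered cells, they were contacted in 44.9% ± 12.7 of bins in even-numbered cells, against 53.1% ± 11.4 in the odd-numbered ones.

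**Figure D4:**
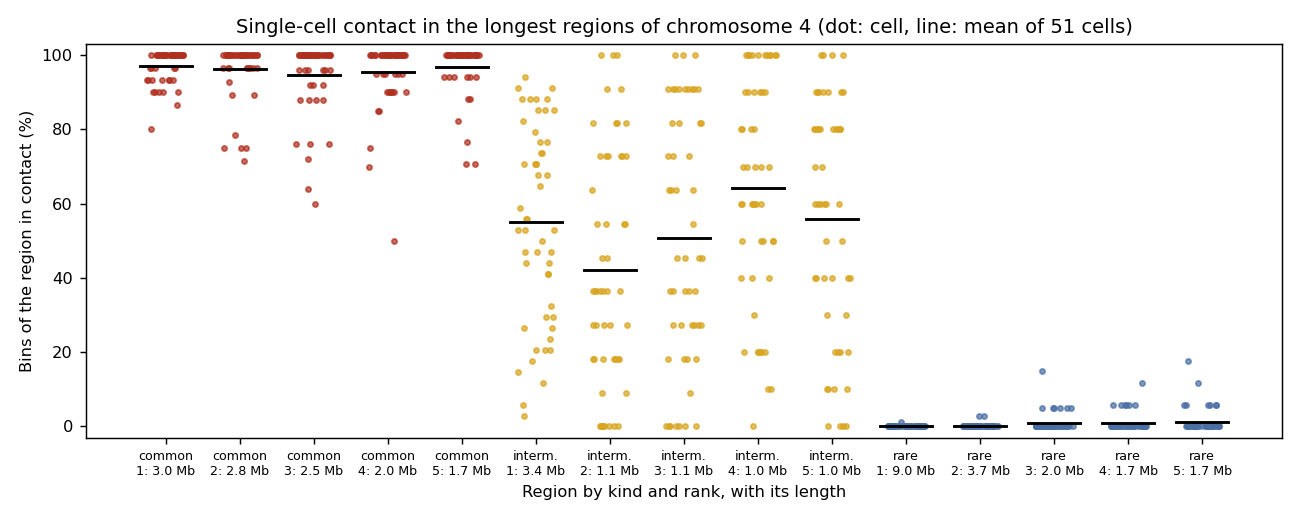
Percentage of bins in contact in each of 51 cells (dots, spread sideways for visibility) and mean (line) in the 5 longest common (red), intermediate (yellow) and rare (blue) runs of chromosome 4. Cells lie at 50.0% or above in all common runs, spread from 0 or near 0 to over 90% in intermediate runs, and stay at or under 17.6% in rare runs.

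Some borders were sharp. They are given for chromosome 4 only, with no count on other chromosomes to set beside them. At 59 places the contact frequency changed between at most 20% and at least 80% within 300 kb, 10 of them between adjacent bins, 30 over 200 kb and 19 over the full 300 kb. Contact began at 27 of them and ended at 32, read from the short arm tip towards the long arm tip. The sharpest lay at 164400001, where the bin from 164400001 to 164500000 was contacted in 1 cell and the bin just before it in 50 of 51. That bin is also the low side of another border, since the bin from 164600001 was contacted in 43 cells. It is thus a short gap in contact, and both of its edges are counted among the 59. The bins from 22400001, 147800001, 176300001 and 178200001 are likewise the low side of counted borders to their left and right. At the border at 164400001 the mean OE was 0.295 on the uncontacted side and 3.27 on the contacted side. The expected numbers were 325 and 293. At 166500001 contact began in 49 cells, against 1 cell in the bin from 166200001. At 95100001 it ended, with 4 cells in contact against all 51 in the bin from 94900001. At 100200001 and 160500001 it began, in 46 and 45 cells, against none in the bins from 99900001 and 160300001. With the OE threshold at 2, 24 such borders were counted on the chromosome.

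Uninterrupted contact in single cells was longer on chromosome 4 than elsewhere. Runs of contacted bins averaged 0.616 Mb ± 0.108 on chromosome 4 and 0.528 Mb ± 0.0778 in the rest of the genome, longer on chromosome 4 by 0.0874 Mb ± 0.0662 and in 48 of 51 cells. A cell had 102 to 176 runs on the chromosome (median 133), and runs of at least 1 Mb held 61.4% ± 8.82 of its contacted bins. The longest run of each cell was 4.0 Mb ± 0.633, from 2.5 Mb in cell 9 to 6.4 Mb in cell 49, where it covered chr4:18100001-24500000. The mean run length of chromosome 4 was 0.456 Mb with every cell thinned to 50978 reads, and 0.365 Mb with the OE threshold at 2. The share of bins in contact was higher on chromosome 4 too, and its part in this difference was not tested.

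Variation between cells was shared over short distances. Among the 447 bins of intermediate frequency, with each cell's own share subtracted, adjacent bins correlated over cells with a mean Pearson's r of 0.440. It was 0.295 at 0.5 Mb, 0.206 at 1 Mb, 0.0928 at 5 Mb and 0.0436 at 10 Mb. Bins of chromosome 4 and of other chromosomes had a mean r of 0.0096. Bins on different arms of chromosome 4 had 0.0242, and bins on the same arm over 20 Mb apart 0.0280. The means within chromosome 4 rest on 132 to 48319 pairs of bins, all come from the same 51 cells, and they are descriptions.

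Relative to the rest of the genome, chromosome 4 had one of the smaller spreads between cells. The SD of its difference from the rest was 3.92 points, the fourth lowest of 20, after chromosomes 7 (3.53), 19 (3.69) and 6 (3.71). Chromosome 15 had the highest, 9.75 points. The chromosomes differ in measured bins, with 1883 on chromosome 4 and 520 on chromosome 15. Chromosome 21, with 356 bins, had an SD of 7.56 points. Chromosome 19, with 560 bins, was low, but it also had the least contact of the 20. The part of bin number and of contact level in this order was not tested, so the rank is not shown to be a trait of chromosome 4. Single cells still departed locally. Cell 44, with the least contact on chromosome 4, had 22.9% on its short arm, the lowest of all cells (mean 42.2%), and 36.9% on its long arm, against 28.5% in the rest of its genome. From 30000001 to 35000000 it had contact in 10.0% of bins, where the median cell had 60.0%. Cell 45 had the widest gap between the arms, with 58.0% on the long arm, the highest of all cells, and 34.2% on the short arm.

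Cell 43 had contact in 12.0% of the bins from 175000001 to 180000000, where the median cell had 82.0%. Within that window and just before it, it missed 16 frequently contacted bins in a row, from 174700001 to 176800000, a stretch in which it had no contact and 30 reads. Cells 4 and 48 had no contact from 65000001 to 70000000, where the median cell had 56.0%, and cell 4 also had only 12.0% in the 5 Mb before that (median 58.0%). Cell 26, the cell with the most contact and the most reads, had no contact from 80000001 to 90000000 (medians of its 2 windows 34.0% and 16.0%). In all, 10 values of a cell in a full window lay at least 40 points under the window's median, in 9 cells, a limit set after the values were seen. Of these 9 cells, 7 had fewer reads than the median cell, and the shallowest had 77404. The part of depth in these departures was not tested.

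**Figure D5:**
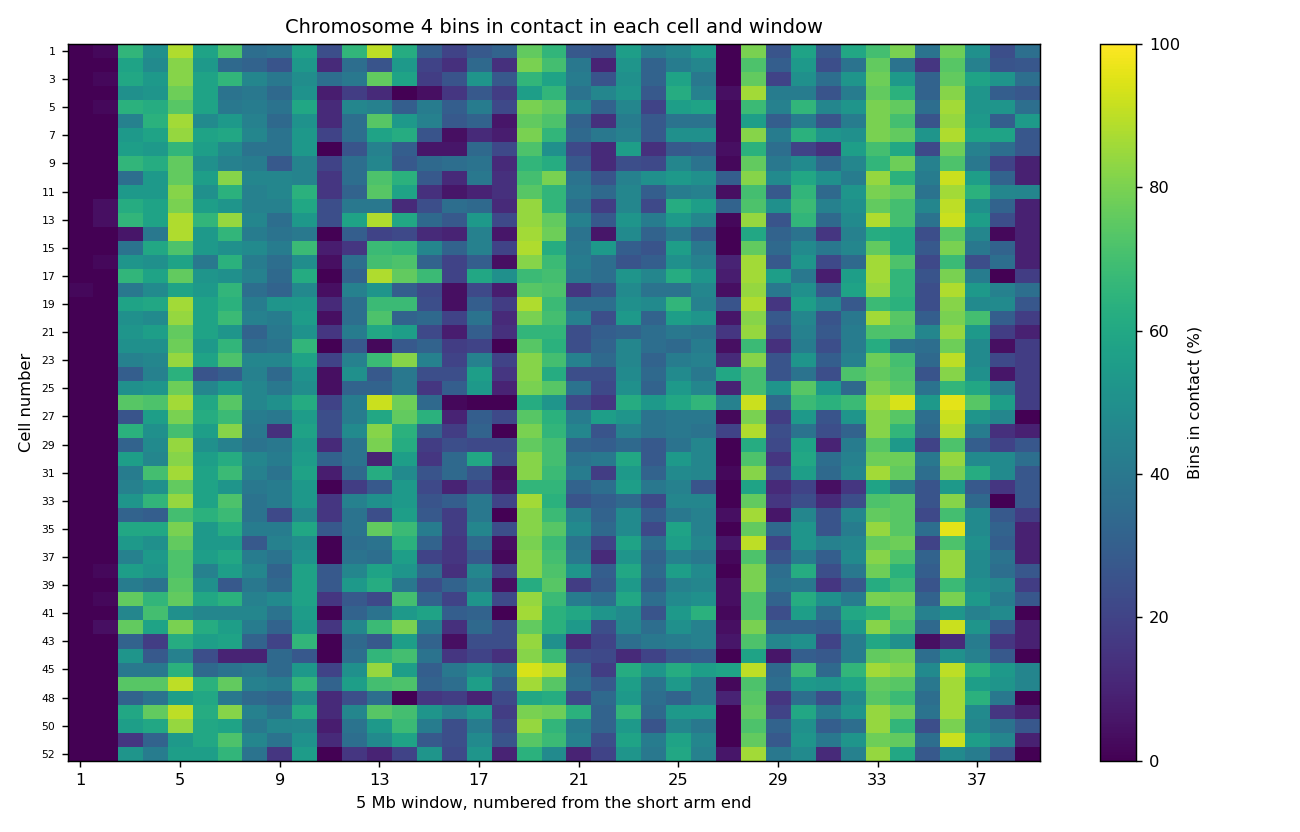
Percentage of bins in contact (colour, from 0 in dark violet to 100% in yellow) in each of 51 cells (rows, by cell number) and each 5 Mb window of chromosome 4 (columns, numbered from the short arm end; window 11 holds the centromeric stretch and 25 measured bins). The first 2 columns are dark in every cell, columns 19, 28, 33 and 36 are bright in nearly all, and single dark cells such as cell 43 in column 36 (12.0%) and cells 4 and 48 in column 14 stand out in their columns.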

How the data were processed

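Lamin B1 DamID was measured in single cells. The deposited values are 1 ratio of observed to expected signal per cell and 100 kb bin, made by the authors. Reads were handled with Cutadapt and Bowtie2 2.1.0 and placed on hg19, per the submitters' processing notes. How the expected signal was made is not given in the sources used here. Of 30376 bins, 3792 had no value and were left out. A column was found for 51 of the 52 labelled cells, and cell 47 was not analysed here.

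In every cell the ratios above 0 were whole multiples, within 0.02 reads, of a step set by the cell and by a whole number belonging to each bin, and 100% came out whole. The multiples were taken as reads, and that number as the bin's expected number, which fixes both only as the smallest whole numbers that serve. PCR reads without molecular identifiers are not independent molecules, so intervals and limits cover counting error only. The recovery and the search for runs were tested on simulated data. Runs are bins that adjoin in position.

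The members and lists were chosen with earlier results of these data known. Named were the 5 longest runs of each kind, the 5 sharpest borders, the highest and lowest windows and the extreme cells. Other stretches and cells were named after their values were seen. Gene groups were listed but not placed, since the annotation used here is of GRCh38, which served only for gene counts and the order of outer genes. Alternatives were an OE threshold at 0.5 or at 2, contact given to the top 30% of bins, bins with a read, an expected number of at least 100, odd-numbered or even-numbered cells, thinning and 500 kb bins. Python 3.11.15 with numpy 2.4.6 was used.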

Additional observations from a re-analysis of the deposited data

How the results depend on the processing

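Of 118 values recomputed under another setting, 91 stayed within the limits set for each, 21 moved and 6 changed sign. Chromosome 4 minus the rest stayed between 9.79 and 14.7 points. Both ends pooled, with the almost uncontacted short arm end among them, minus the other bins stayed between -31.1 and -21.5. Chromosome 4 minus chromosome 5 stayed between 5.53 and 7.06 and minus chromosome 18 between -3.48 and -2.45. At an OE of at least 0.5 the chromosome 4 share was 52.4%, bins in at least 80% of cells 39.9%, bins in no cell 12.5%, the rare runs 1.82% and the intermediate runs 71.2%. With the threshold at 2 the share was 29.1%, bins in at least 80% of cells 10.2%, bins in no cell 33.8%, the common runs 78.6%, the intermediate runs 25.0%, the mean run length 0.365 Mb and the borders 24. These shifts follow from the threshold itself. Bins in no cell were 18.7% among bins with a read, 18.8% at an expected number of at least 100, 24.9% in odd-numbered and 25.9% in even-numbered cells, and 18.3% after thinning. Bins in at least 80% of cells were 34.8% in odd-numbered cells and 27.5% after thinning, when the rare runs stood at 0.812% and the mean run length at 0.456 Mb. By construction the odd-numbered and even-numbered sets hold fewer cells and thinning leaves fewer reads. The settings by read or by expected number leave out bins instead. How each of these moved the values was not tested. The sign changed for chromosome 4 minus X at an OE of at least 0.5 (0.434 points) and after thinning (0.552). It also changed for long minus short arm among bins with a read (-1.89), at an expected number of at least 100 (-2.54), without 5 Mb at either end (-2.54) and without the first 10 Mb (-8.67). The last 2 leave out the short arm tip, which was almost without contact. The first 2 leave out the 59 bins without a read, of which 23 lay in the first 5 Mb and 16 in the next 5 Mb. The part of these bins in the sign change was not tested, nor was the cause for chromosome X. Added after seeing the data were the alternatives for chromosomes 5, 18 and X, borders and covariation, the run without cells 9, 26 and 42, the odd-to-even check and the one without the first 10 Mb. The gene group alternatives were not run. No paired analysis was possible because there is 1 group. Depth limits calls in shallow cells, where a bin at an OE of 1 held 2.07 reads.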

Other observations

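Cell 42 stood apart on other chromosomes. Its share of bins in contact was 46.8% on chromosome 4 but 10.2% on chromosome 5, where the 51 cells averaged 36.9% ± 5.73, and 22.4% over all bins outside chromosome 4, the lowest of all cells. Chromosome 4 took 16.3% of its reads, against 9.92% ± 1.43 over all cells. It missed 3.81% of the frequently contacted bins of chromosome 4, while cells 43 and 44 missed 25.2% and 25.0%. The number of chromosome copies in single cells was not measured here, and its part in these values was not tested.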
